A study of Mus musculus with 2 samples.

Results

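The genes described here are 10 mouse liver genes of drug and hormone oxidation. They are Cyp1a1 and Cyp1a2, the 6 Cyp3a genes Cyp3a11, Cyp3a13, Cyp3a25, Cyp3a41a, Cyp3a44 and Cyp3a59, the reductase gene Por, and Ahr, which encodes the Ah receptor. They were found by their names in GENCODE M21, and all 10 were among the 55421 genes of the deposited count tables. Liver RNA was sequenced from mice with floxed Rcrin alleles, the group labelled WT, and from an Rcrin conditional knockout. Both groups carry a time of 8 weeks in the labels. Each had 1 library, and the sources used here give neither the number and sex of the mice nor the Cre driver and the cells that lost Rcrin.

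Cytochrome P450 enzymes of families 1 and 3 are heme proteins of the endoplasmic reticulum that oxidise drugs, steroids, dietary compounds and pollutants. Each catalytic cycle needs electrons from NADPH, which cytochrome P450 reductase, the product of Por, passes to all microsomal P450s and also to heme oxygenase. The Ah receptor is a ligand-activated transcription factor that pairs with Arnt and switches on Cyp1a1, Cyp1a2 and Cyp1b1. The pregnane X receptor PXR, encoded by Nr1i2, is the main xenobiotic sensor for Cyp3a11 and works with the retinoid X receptor and beside the related receptor CAR, encoded by Nr1i3.

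Totals were 65121596 counts for WT and 63587567 for the knockout. A single library per genotype leaves the spread between mice unknown, and the comparisons therefore carry no test or p-value. Paired values give WT first. They are raw counts or counts per 1000000 after TMM scaling (CPM). Differences are log2 ratios of knockout over WT with an exact 95% interval that covers counting error only. Genes averaging 50 counts or more entered the comparison, and those differing by 2-fold or more were counted as past the limit. In whole liver, fewer cells of a type and less RNA per cell cannot be told apart. Hepatocyte markers were present in both libraries: 14 of the 15 listed matched a gene, none of these was at 0 in either library, and their median log2 ratio was 0.08.

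Of the 10 genes, 9 were compared and Cyp3a41a was listed at 0 in both libraries. Por and Cyp3a44 stood lower in the knockout library by more than 2-fold, and 0 of the 9 stood higher by as much. The remaining 7 differed by less than 2-fold. Over all 12064 genes compared, 8.61% were lower and 8.45% were higher by that limit, 17.1% in either direction. Each of the 10 genes has at least 7 exons, and among compared genes with at least 7 exons the shares were 6.83% lower and 6.4% higher. With a 1.5-fold limit 3 were higher (Cyp1a2, Cyp3a25 and Cyp3a59) and 3 lower (Por, Cyp3a44 and Ahr), against 19% and 18.8% of all genes. Por alone had an interval wholly beyond 2-fold on the lower side and 0 had one on the higher side, against 6.18% and 5.93% of all genes. Of the 9 log2 ratios 5 were above 0 and 4 below, with a median of 0.24 that became -0.16 once a smooth trend with GC content was removed. The median of all genes compared was -0.01.

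**Figure D1:**
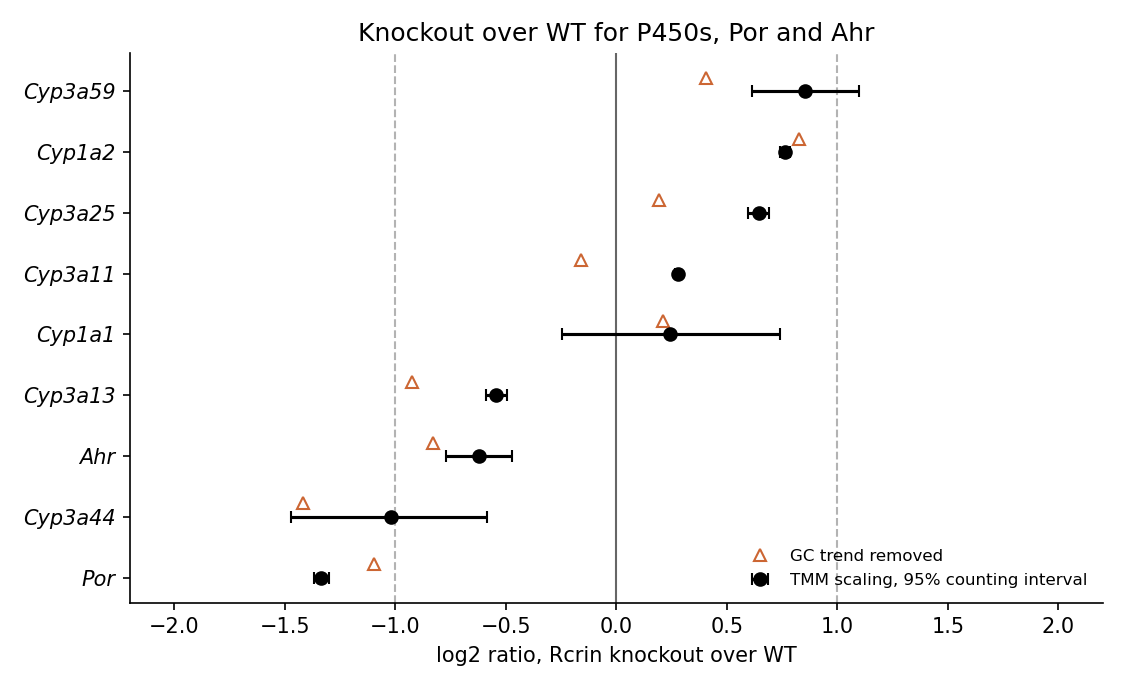
Log2 ratio of knockout over WT for the 9 genes compared, with exact 95% counting intervals (black), and the same value with the GC trend removed (triangles). Dashed lines mark 2-fold. Por lies at -1.33 and stays past the line as a triangle, while Cyp3a11 crosses 0, from 0.28 to -0.16.

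Levels spanned more than 3 orders of magnitude per length of transcript. In the WT library Cyp3a11 was highest at 936 CPM per kb, followed by Cyp1a2 at 212 and Por at 136. Cyp3a13 at 46.6 and Cyp3a25 at 45.7 followed, and their counting intervals overlapped (45.6 to 47.6 and 44.6 to 46.9). Ahr at 2.68 CPM per kb, Cyp3a59 at 1.71, Cyp3a44 at 1.06 and Cyp1a1 at 0.380 formed the low end. In the knockout library Cyp3a11 at 1134 CPM per kb and Cyp1a2 at 361 kept the first places. Cyp3a25 at 71.5 stood above Por at 53.9 and Cyp3a13 there, and Cyp3a59 at 3.09 stood above Ahr at 1.75. The lowest values in the knockout library, Cyp3a44 at 0.522 and Cyp1a1 at 0.451, had overlapping intervals (0.402 to 0.667 and 0.355 to 0.565).

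**Figure D2:**
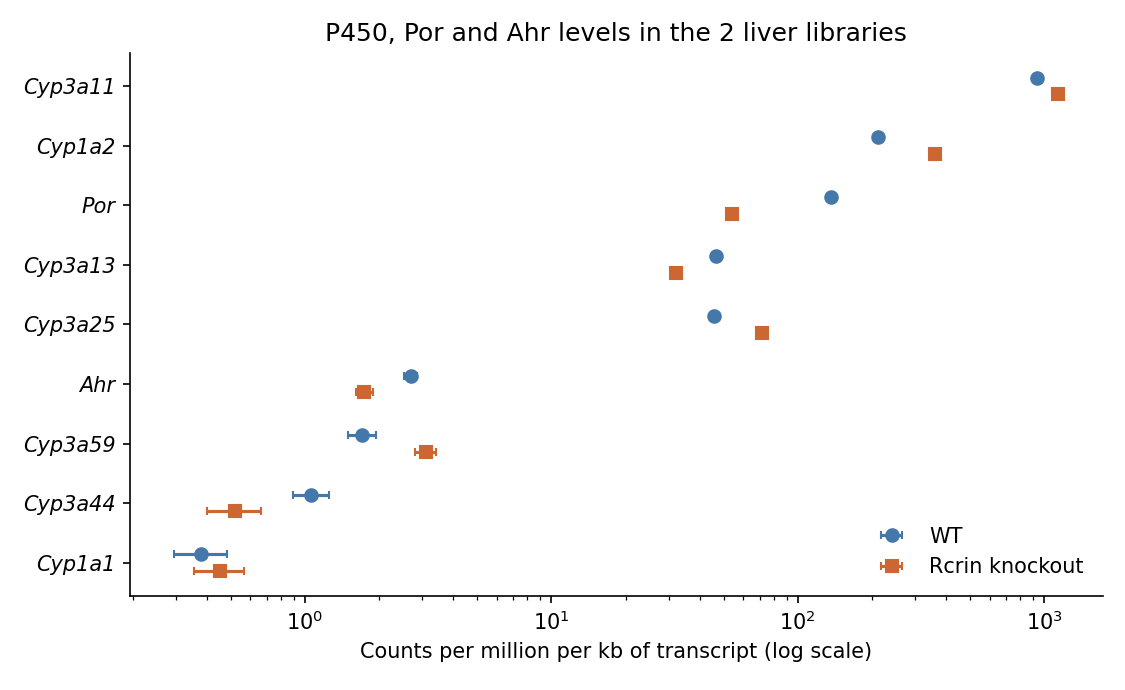
Level of each gene in CPM per kb of transcript (log axis) in the WT library (circles) and the Rcrin knockout library (squares), with exact 95% counting intervals and genes ordered by WT level. Cyp3a41a, at 0 in both, is left out. Por lies to the left in the knockout library (136 and 53.9) while Cyp1a2 lies to the right (212 and 361).

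Por, the electron donor of the group, showed the largest log2 ratio in size of the 9 genes, and the second largest after Cyp3a44 with the GC trend removed (-1.10 against -1.42). It lies on GRCm38 chromosome 5 from 135670033 to 135735326 on the plus strand, with 16 exons (ENSMUSG00000005514). Its counts were 23737 (WT) and 8871 (knockout). The knockout value was 2.52-fold lower, a log2 ratio of -1.33 with a counting interval of -1.37 to -1.30. No 50-base stretch of its longest coding transcript occurred in a transcript of another gene, and no paralog shares its reads at that length. A lincRNA and a processed pseudogene overlap Por on the opposite strand, and both were listed at 0 in both libraries.

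Por was also counted against P450 genes. These ratios are taken within a library and need no scaling between libraries. For every 1000 counts of the 8 Cyp1a and Cyp3a genes there were 126 Por counts in WT liver (124 to 128) and 39.4 in knockout liver (38.6 to 40.2), 3.20-fold fewer. Per 1000 Cyp1a2 counts there were 869 and 203 Por counts, 4.28-fold fewer in the knockout library. Per 1000 Cyp3a11 counts there were 163 and 53.4, 3.06-fold fewer. The protein-coding genes of families Cyp2 and Cyp4, 69 in all and a set chosen after the values were seen, gave 22.6 and 6.95 Por counts per 1000 of theirs, 3.26-fold fewer. On the log2 scale Por stood 1.61 below Cyp3a11 in the difference between libraries. This gap was 0.94 with the GC trend removed, which is smaller than Por's own difference in that setting. The gap to Cyp1a2 was 2.10 (1.92 with the GC trend removed), that to Cyp3a25 1.98 (1.29) and that to Cyp3a13, which was itself lower, 0.79 (0.17). Por transcripts have a GC content of 57.0%, Cyp1a2 transcripts 51.7% and Cyp3a11 transcripts 40.7%.

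**Figure D3:**
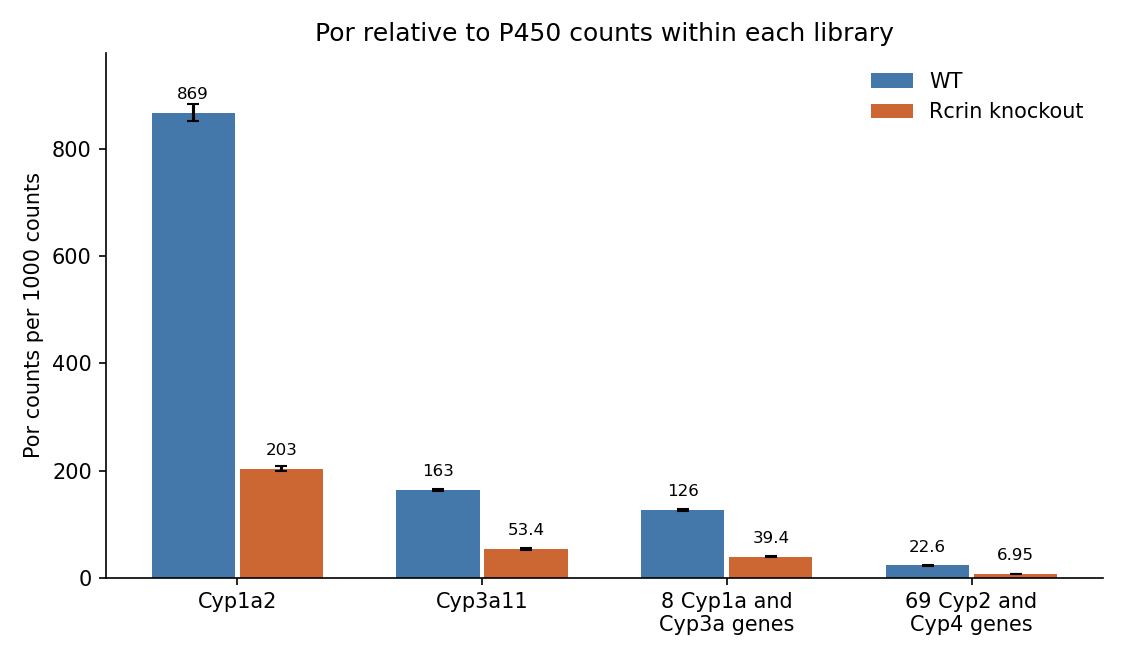
Por counts per 1000 counts of Cyp1a2, Cyp3a11, the 8 Cyp1a and Cyp3a genes, and 69 Cyp2 and Cyp4 genes, in the WT and Rcrin knockout libraries, as bars from 0 with exact 95% counting intervals. Each knockout bar is lower, from 203 against 869 for Cyp1a2 to 6.95 against 22.6 for the Cyp2 and Cyp4 genes.

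Genes listed as electron transfer partners of P450s differed less than Por. The list is broader than electron donors of microsomal P450s and holds Cyb5a, Cyb5b, Cyb5r1, Cyb5r3, Pgrmc1, Pgrmc2, Fdx1 and Fdxr. Of these 8 genes, all compared, 0 were past 2-fold in either direction, against 17.1% of all genes. Their median log2 ratio was 0.19. Cyb5a, the microsomal cytochrome b5 that supports some P450 reactions, had 62659 and 100739 counts and the highest ratio of the list at 0.77. Cyb5r3, which reduces cytochrome b5 with NADH, had 34395 and 33814 counts (0.06). Cyb5r1, a related reductase, was the lowest at -0.67 with 845 and 499 counts. There were 2640 Cyb5a counts per 1000 Por counts in WT liver (2601 to 2680) and 11356 in knockout liver (11112 to 11606).

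Ahr stood lower and Cyp1a2 higher in the knockout library. Ahr lies on chromosome 12 from 35497974 to 35535038 on the minus strand, with 11 exons (ENSMUSG00000019256). It had 987 and 605 counts, 1.54-fold lower in the knockout library (log2 ratio -0.62, interval -0.77 to -0.47). Cyp1a2, the main constitutive Cyp1a enzyme of liver, had 27320 and 43714 counts and stood 1.70-fold higher (log2 ratio 0.76, interval 0.74 to 0.79). Cyp1a1, which is low in liver without an Ah receptor ligand, had 68 and 76 counts (log2 ratio 0.24), and its interval of -0.25 to 0.74 held 0. At this depth no difference in Cyp1a1 was detectable. There were 2.49 Cyp1a1 counts per 1000 Cyp1a2 counts in WT liver and 1.74 in knockout liver, with overlapping intervals (1.93 to 3.16 and 1.37 to 2.18). Of the 50-base stretches of the Cyp1a2 transcript, 4.97% also occurred in Cyp1a1.

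The Cyp1a genes are neighbours on chromosome 9, Cyp1a2 from 57676937 to 57683703 on the minus strand (ENSMUSG00000032310) and Cyp1a1 from 57687928 to 57703824 on the plus strand (ENSMUSG00000032315). Their RefSeq start sites lie 13.96 kb apart and point away from each other. The 250 bases before a start site were searched on both strands for GCGTG, the core that the Ah receptor and Arnt recognise. The letters occurred in 28.2% of 27025 RefSeq promoter windows of the same length. They stood once in the Cyp1a1 window, at positions -54 to -50 from the start site, and 3 times in the Por window, and there were 0 in that of Cyp1a2. The windows of Cyp1a1 (chr9:57697363-57697612, plus strand) and Por (chr5:135688895-135689035, plus strand) are shown because they hold the core. Both are RefSeq sequences of GRCm38.p6, 5′ to 3′, that of Por without the last 109 bases, which GENCODE places in an exon and which hold the other 2 matches, with the core in capitals on either strand.
Cyp1a1: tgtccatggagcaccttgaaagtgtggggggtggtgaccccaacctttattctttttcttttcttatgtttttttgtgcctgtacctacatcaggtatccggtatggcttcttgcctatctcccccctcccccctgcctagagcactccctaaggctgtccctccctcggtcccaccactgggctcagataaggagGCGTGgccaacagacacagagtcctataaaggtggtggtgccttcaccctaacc
Por: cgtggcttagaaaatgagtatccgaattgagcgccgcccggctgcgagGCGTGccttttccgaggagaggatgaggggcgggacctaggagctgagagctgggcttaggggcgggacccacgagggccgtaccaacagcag
Over all 250 bases the Por window is 65.6% GC and the Cyp1a1 window 53.6%. A match describes the letters and not binding. Sequence outside the 250-base windows was not searched, so sites farther from the start sites were not counted for any gene. Both genes have a further annotated start upstream of these windows.

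The Ah receptor's partners lay below 0. Of 10 genes, 8 were compared, 2 were lower by more than 2-fold and 0 higher, and the median log2 ratio was -0.54. Over all genes compared, 8.61% were lower and 8.45% higher by that limit, with a median of -0.01. All 8 partners were below 0, also with the GC trend removed. Arnt itself had 1127 and 750 counts (-0.50). The heat shock protein gene Hsp90aa1, part of the receptor's cytosolic complex, had 6303 and 1913 counts (-1.63). Nrip1, a corepressor and coactivator of nuclear receptors, had 334 and 7 counts (-5.40) and has 4 exons. The highest was the co-chaperone gene Ptges3 at -0.21. The Ah receptor repressor Ahrr had 4 and 0 counts.

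Other Ah receptor targets showed no common direction. Of 10 genes, 8 were compared, 1 was higher and 1 lower by more than 2-fold, and the median was -0.28. The shares of all genes were 8.45% higher and 8.61% lower. The glutathione transferase Gsta1 had 27 and 330 counts (log2 ratio 3.67), with reads that a close paralog can share. The glucuronosyltransferase Ugt1a6b had 3235 and 1176 counts (-1.37), and Ugt1a genes share their last exons. Tiparp, an ADP-ribosyltransferase that damps receptor activity, had 196 and 113 counts (-0.71, and -1.15 with the GC trend removed). Nqo1, a quinone reductase, had 106 and 179 counts (0.84). Cyp1b1, another dioxin-responsive P450, had 10 and 30 counts, too few to be compared here.

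Within the Cyp3a family the genes differed in both directions, the abundant ones by less than 2-fold. The 6 genes summed to 161014 counts (WT) and 181399 (knockout), a log2 ratio of 0.26 (interval 0.25 to 0.27). With the GC trend removed, an alternative chosen after the values were seen, this sum was -0.18, which is the opposite direction. Cyp3a11, the major PXR-inducible Cyp3a of mouse liver, made up 90.3% of the family's counts in WT liver and 91.6% in knockout liver. It lies on chromosome 5 from 145854426 to 145879964 (ENSMUSG00000056035) and had 145460 and 166122 counts (log2 ratio 0.28, interval 0.27 to 0.29). With the GC trend removed its log2 ratio turned to -0.16. The Cyp3a genes have a GC content of 40.3% to 42.4%, below the other 4 genes.

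Cyp3a25 and Cyp3a59 stood higher and Cyp3a13 lower. Cyp3a25 (ENSMUSG00000029630, chromosome 5 from 145977194 to 146009618) had 6063 and 8928 counts, 1.56-fold higher in the knockout library (log2 ratio 0.64, interval 0.60 to 0.69). Cyp3a59 (ENSMUSG00000061292, chromosome 5 from 146079257 to 146113287) had 225 and 384 counts, 1.81-fold higher (log2 ratio 0.86, interval 0.62 to 1.10). With the GC trend removed these log2 ratios were 0.19 and 0.41. Their transcripts were 97.0% identical over 1990 aligned bases. Of the 50-base stretches of Cyp3a59, 24.7% also occurred in Cyp3a25, so reads can be split between them. Cyp3a59 counts per 1000 Cyp3a25 counts were 37.1 and 43.0, with overlapping intervals (32.3 to 42.4 and 38.7 to 47.6).

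Cyp3a13, a Cyp3a gene that liver and intestine both express, had 9128 and 5901 counts, 1.46-fold lower in the knockout library (log2 ratio -0.54, interval -0.59 to -0.50). With the GC trend removed it was -0.93. It lies on chromosome 5 from 137892932 to 137921619 (ENSMUSG00000029727), apart from the other Cyp3a genes, and none of its 50-base stretches occurred in a transcript of another gene. Its share of the family's counts was 5.67% in WT liver (exact interval 5.56% to 5.78%) and 3.25% in knockout liver (3.17% to 3.34%). Of 9 intestinal epithelium markers, 5 were at 0 in both libraries, among them Cdx1, Cdx2 and Alpi, and Muc2 had 4 and 0 counts. Fabp2, which liver also expresses at a low level, had 1388 and 1916 counts, and Lgals4 had 188 and 265.

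Among Cyp3a genes known in mice for female-predominant or fetal expression in liver, Cyp3a41a, Cyp3a41b and Cyp3a16 were at or near 0 and Cyp3a44 was low. Cyp3a41a (ENSMUSG00000075551, chromosome 5 from 145694049 to 145720136) was listed at 0 in both libraries. For counting error alone, the floor for a count of 0 was set at 3 counts, which is 0.0453 CPM in WT liver and 0.0480 CPM in knockout liver. This floor does not cover reads left uncounted because other genes share them. Cyp3a41b, the near-identical neighbour of Cyp3a41a, had 0 and 2 counts, and Cyp3a16 was listed at 0 in both. Of the 50-base stretches of Cyp3a41a, 98.6% also occurred in other genes, 93.7% in Cyp3a41b, and how the authors counted reads shared in this way is not stated in the sources used here. The 14 female-biased liver genes listed, none of them a Cyp3a gene, summed to 35.5 CPM in WT liver and 57.3 in knockout liver. Of the 8 compared, 5 were higher and 1 lower, with a median log2 ratio of 1.29. The 14 male-biased genes, all compared, summed to 4756 and 5787 CPM, and 5 were higher and 1 lower as well, with a median of 0.32. Over all genes compared, 8.45% were higher and 8.61% lower.

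Cyp3a44 (ENSMUSG00000054417, chromosome 5 from 145773983 to 145805874) had 138 and 64 counts. It was 2.02-fold lower in the knockout library, just past the limit, with a log2 ratio of -1.02 and an interval of -1.47 to -0.59 that reaches inside 2-fold. Adding 5 reads in place of 0.5 brought it back within 2-fold. Per 1000 Cyp3a11 counts there were 0.949 Cyp3a44 counts in WT liver (0.797 to 1.12) and 0.385 in knockout liver (0.297 to 0.492). Of its 50-base stretches, 26.5% occurred in transcripts of other genes.

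Genes at 0 and abundant genes of the Cyp3a cluster were close in sequence. The cluster's 8 genes span 768 kb of chromosome 5. From the Cyp3a57 end, Cyp3a57, Cyp3a16, Cyp3a41b and Cyp3a41a were at or near 0 in both libraries, and higher counts began at Cyp3a44. Cyp3a57, listed at 0 in both, was 92.9% identical to Cyp3a25 in transcript and 90.3% in the 250 bases before the start site. Cyp3a41a and Cyp3a44 were 94.4% identical in that window. Cyp3a11 was 94.5% identical to Cyp3a41a in transcript and 80.9% in the window. The windows are shown because genes of such different levels share so much of them, first the trio around Cyp3a11 and then the pair of Cyp3a25 and Cyp3a59. They are RefSeq sequences of GRCm38.p6, 5′ to 3′, for Cyp3a11 (chr5:145879965-145880104, minus strand), Cyp3a44 (chr5:145805875-145806124, minus strand), Cyp3a41a (chr5:145720137-145720386, minus strand), Cyp3a25 (chr5:146009619-146009868, minus strand) and Cyp3a59 (chr5:146079008-146079256, plus strand). The window of Cyp3a11 is shown without its last 110 bases and that of Cyp3a59 without its last base, which GENCODE places in an exon. Positions are counted from the RefSeq start site. Capitals mark the nuclear receptor half-sites AGGTCA and AGTTCA on either strand.
Cyp3a11: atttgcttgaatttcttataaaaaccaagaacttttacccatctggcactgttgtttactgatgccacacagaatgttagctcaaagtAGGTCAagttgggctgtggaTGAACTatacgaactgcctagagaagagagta
Cyp3a44: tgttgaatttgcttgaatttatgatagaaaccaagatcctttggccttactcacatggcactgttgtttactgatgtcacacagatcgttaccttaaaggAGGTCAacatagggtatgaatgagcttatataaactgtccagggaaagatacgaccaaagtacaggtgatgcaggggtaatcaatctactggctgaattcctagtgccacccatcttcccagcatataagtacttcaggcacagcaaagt
Cyp3a41a: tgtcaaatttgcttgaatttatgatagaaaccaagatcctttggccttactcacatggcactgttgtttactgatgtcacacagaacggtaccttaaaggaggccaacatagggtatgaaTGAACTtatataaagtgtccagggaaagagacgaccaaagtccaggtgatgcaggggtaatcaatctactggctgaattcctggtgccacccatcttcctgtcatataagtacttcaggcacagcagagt
Cyp3a25: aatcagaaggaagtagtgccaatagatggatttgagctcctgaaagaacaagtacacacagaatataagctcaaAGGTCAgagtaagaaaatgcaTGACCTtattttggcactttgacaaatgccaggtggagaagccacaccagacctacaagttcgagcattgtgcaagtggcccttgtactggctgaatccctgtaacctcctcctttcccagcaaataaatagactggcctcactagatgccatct
Cyp3a59: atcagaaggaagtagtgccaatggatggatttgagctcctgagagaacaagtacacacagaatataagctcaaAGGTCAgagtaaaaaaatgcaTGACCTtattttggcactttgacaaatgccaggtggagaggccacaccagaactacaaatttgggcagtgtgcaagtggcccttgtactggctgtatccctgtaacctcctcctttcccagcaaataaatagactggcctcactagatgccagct
AGGTCA occurred in 13.8% of the 27025 promoter windows and AGTTCA in 11.9%. Cyp3a11 held AGGTCA at positions -162 to -157 and the reverse of AGTTCA at -142 to -137. Cyp3a44 held the former alone and Cyp3a41a the latter alone. Cyp3a25 and Cyp3a59, both of which stood higher, each held 2 copies of AGGTCA in opposite orientation, at -176 to -171 and -155 to -150 in Cyp3a25. Cyp3a57 held such a pair too and was listed at 0. The window of Cyp3a13 held neither half-site, and no matches overlapped.

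**Figure D4:**
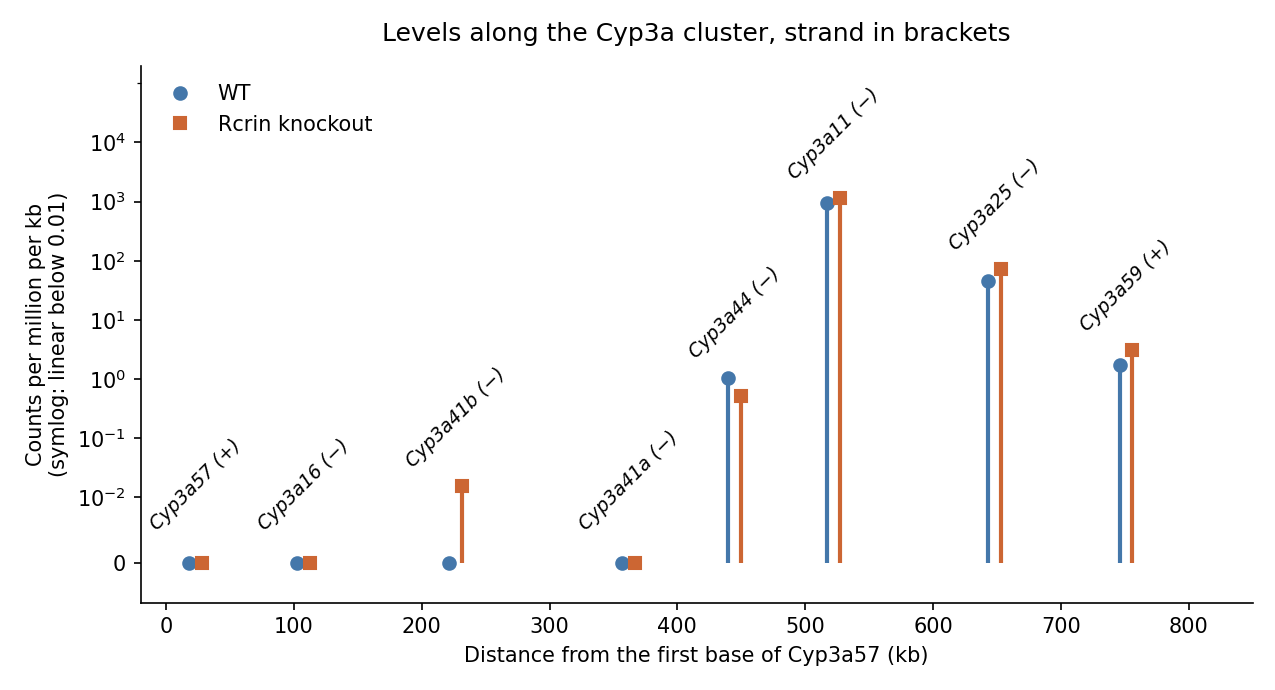
Level in CPM per kb of transcript (symmetric log axis, linear below 0.01) of the 8 Cyp3a genes of the cluster against distance from the first base of Cyp3a57 in kb, for the WT (circles) and Rcrin knockout (squares) libraries. Cyp3a57, Cyp3a16 and Cyp3a41a lie at 0 in both, and Cyp3a11 stands at 936 and 1134.

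The PXR and CAR genes lay above 0, and of their retinoid X receptor partners Rxra lay below 0 and Rxrb above. Of 12 genes of PXR, CAR and their partners, 11 were compared, 2 were higher and 2 lower by more than 2-fold, with a median of 0.56. The shares of all genes were 8.45% higher and 8.61% lower. Cebpa was not compared, as it was listed at 0 in both libraries. Whether a listed 0, here or for the Cyp3a genes, reflects the RNA level or the counting was not tested. Nr1i2, the PXR gene, had 2233 and 3120 counts (log2 ratio 0.57), and Nr1i3, the CAR gene, had 4314 and 4529 (0.16). Rxra, a retinoid X receptor with which both pair, had 13896 and 5931 counts, a log2 ratio of -1.14 that became -0.90 with the GC trend removed. Rxrb, another retinoid X receptor, had 2285 and 2558 counts (0.25, and 0.49 with the GC trend removed). Hnf4a, a hepatocyte factor that supports Cyp3a expression, had 7694 and 16348 counts (1.17). Cebpb, which has a single exon, had 3500 and 7817 (1.24), and the coactivator gene Ppargc1a had 130 and 58 (-1.07). Per length, Nr1i2 and Nr1i3 lay above Ahr in both libraries, at 13.2 and 21.8 CPM per kb in the WT library against 2.68.

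Among other PXR and CAR targets, several stood higher. Of 18 genes, 17 were compared, 7 were higher and 1 lower by more than 2-fold, with a median of 0.32. The background over all genes is 8.45% higher and 8.61% lower. The P450 genes Cyp2b10, the classical CAR target, with 37 and 140 counts (1.99), Cyp2c37 (2.40) and Cyp2c55 (1.11) belong to families of close paralogs. Gsta2 had 226 and 1976 counts (3.21), the sulfotransferase Sult1d1 774 and 2927, and the anion transporter Slco1a4 559 and 1264 (1.26). The carboxylesterase Ces2a had 16583 and 32289 counts (1.05). Ugt1a1, which conjugates bilirubin, stood lower, with 32218 counts in WT and 9551 in the knockout (-1.67), and it shares exons with the Ugt1a genes named above. With the GC trend removed, Cyp2c55 (0.72) and Slco1a4 (0.82) came back within 2-fold, and Ces2a did so with scaling by total count.

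Heme genes, which supply the P450 prosthetic group, centred near 0. Of 13 genes, all compared, 0 were higher and 2 lower by more than 2-fold, with a median of 0.09. The shares of all genes were 8.45% higher and 8.61% lower. Alas1, the rate-limiting enzyme of hepatic heme synthesis, had 42279 and 30986 counts (-0.36). Cpox, a late enzyme of the same pathway, had 4778 and 1321 counts (-1.77). Hmox1, the inducible heme oxygenase that takes its electrons from the Por product, had 4156 and 1623 (-1.27). Blvra, which reduces the biliverdin that heme oxygenase makes, was highest at 0.81. With the GC trend removed Blvrb stood past 2-fold, at 1.05. Red cells also make heme. The 7 red cell markers matched had summed levels of 3087 and 784 CPM, with none at 0. Of these, 6 were compared and 5 were lower by more than 2-fold, against 8.61% of all genes. The remaining one, Alas2, which starts heme synthesis in red cells, had 13871 and 19110 counts (0.55). Their part in the heme gene values was not tested.

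**Figure D5:**
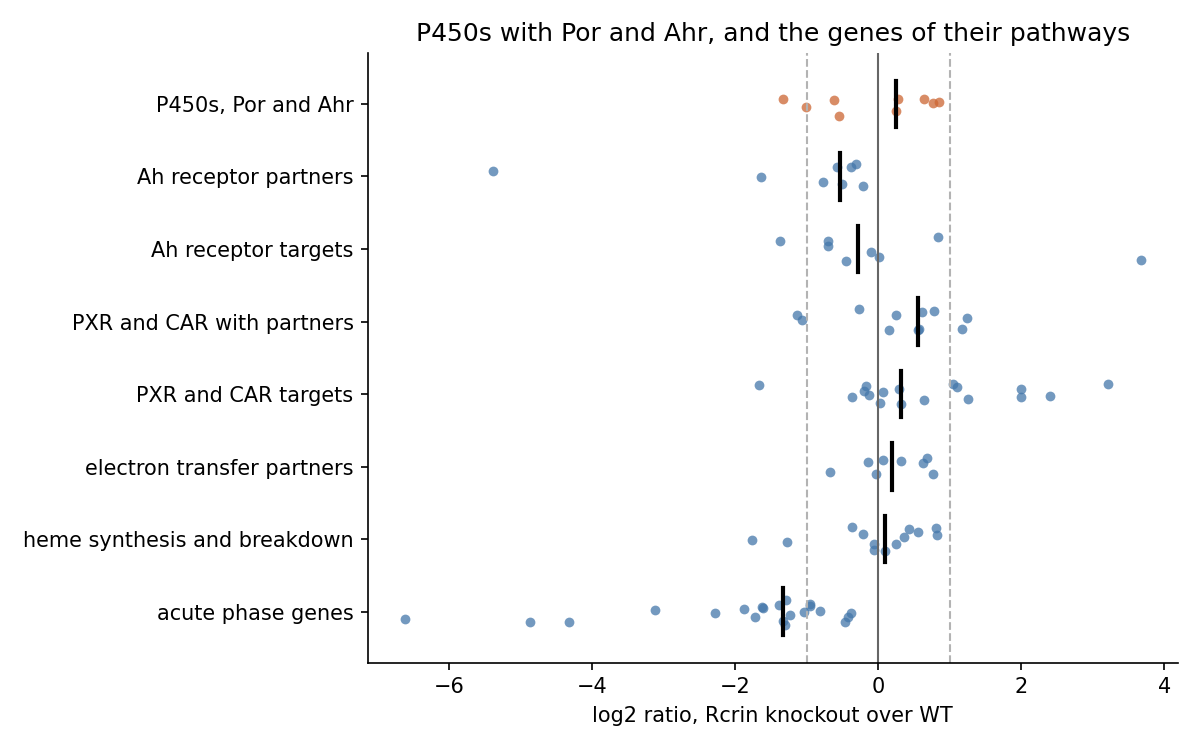
Log2 ratio of knockout over WT for each compared gene (points) in 8 groups, with the median of each group as a black bar and 2-fold as dashed lines. The Cyp1a, Cyp3a, Por and Ahr genes spread on both sides of 0, PXR and CAR targets reach 3.21, and all 21 acute phase genes lie below 0 with a median of -1.33.

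Among the 64 compared genes of these pathways, the ratios nearest to that of Cyp1a2 (0.76) were those of Cyb5a (0.77) and Nr0b2 (0.78). The nearest to Cyp3a11 (0.28) were Abcc3 (0.29) and Alad (0.25). The nearest to Por (-1.33) were Ugt1a6b (-1.37) and Hmox1 (-1.27). Likeness here is the difference of the log2 ratios over 2 libraries.

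Several gene groups outside drug metabolism differed between the libraries beside these genes. Over all genes compared, 8.61% were lower and 8.45% higher by the 2-fold limit. The acute phase list holds plasma protein genes that the liver makes in response to inflammation. Of its 22 genes, 21 were compared, 15 were lower by more than 2-fold and 0 higher. Their median was -1.33 and their summed level was 81061 CPM in WT liver and 32974 in knockout liver, with Apcs at 46 and 0 counts. The lowest was Saa2 at -6.62 and the highest Fgg at -0.38. Of 14 unfolded protein response genes of the endoplasmic reticulum, where P450s and their reductase reside, 5 were lower and 0 higher, with a median of -0.75 and summed levels of 5787 and 3526 CPM. Their part in the Por and P450 differences was not tested.

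Zonation markers centred near 0. For the counts of markers past 2-fold below, the shares of all genes were 8.61% lower and 8.45% higher. The 12 pericentral genes, which mark the hepatocytes richest in P450s, had a median of -0.02 with 1 higher and 0 lower, and 0 of the 12 periportal genes were past 2-fold, with a median of -0.00. Summed levels were 9750 and 11919 CPM for the former and 8179 and 8784 for the latter, and none of either list was at 0. Ahr is also expressed by cells other than hepatocytes. Kupffer cell markers, all 11 compared, had a median of -0.56 and summed to 1826 and 1283 CPM, with Cd68 lowest at -1.30. Of the Kupffer list 1 was lower and 1 higher, the latter Vsig4 with 1392 and 2665 counts (1.02). Sinusoidal endothelial markers had a median of -0.34 over 12 genes and summed to 550.0 and 506 CPM. Stellate cell markers had one of -0.45 over 11 and summed to 329 and 298 CPM, and lymphocyte markers summed to 16.6 and 15.7 CPM. Neutrophil markers, 8 compared, were all below 0, 5 of them past 2-fold, with a median of -1.60 and summed levels of 63.9 and 24.0 CPM. None of these markers was at 0 in either library. Their part in the lower Ahr count was not tested.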

How the data were processed

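The authors deposited unnormalised gene counts, whole numbers under Ensembl identifiers, in 1 table for each library, per the file headers. The mouse build GRCm38, also called mm10, is named in the submitters' processing notes. No aligner, counter, strand setting or rule for multi-mapped reads is given in the sources used here. Per the labels' protocols, Trizol was used for RNA and a SMARTER mRNA-Seq kit for libraries. Totals were 65121596 counts (WT) and 63587567 (knockout).

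Groups came from the genotype label. Scaling used the TMM method of edgeR 4.0.16 under R 4.3.3, with factors of 1.02 (WT) and 0.982 (knockout). Log2 ratios were taken after adding 0.5 reads in proportion to depth. Intervals are exact (Clopper-Pearson) and conditional on the summed count, and those of CPM per kb are exact Poisson intervals. They cover counting error only, and PCR reads without molecular identifiers are not independent molecules. Where a gene was at 0 in a library no fold is given. With 1 library per group edgeR and DESeq2 were not used for a test.

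Annotation was that of GENCODE M21, built on GRCm38, which held 55154 of the 55421 genes. Length is that of the longest coding transcript. GC content is the median over all transcripts of a gene, and the exon number is the largest of any of its transcripts. Promoter windows came from the RefSeq table of GRCm38.p6, with entries for 9 of the 10 (all but Ahr). Sharing of 50-base stretches was computed over all GENCODE transcripts, and identities were taken from pairwise alignments in Biopython 1.88. The calculations were tested on simulated counts.

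The 10 genes and the gene lists were chosen with earlier results of these data known. Named genes are the 10, every pathway gene past 2-fold, the highest and lowest of each list, the genes nearest in log2 ratio to Cyp1a2, Cyp3a11 and Por, and genes whose role in the pathway bears on them, which were named after their values were seen. The alternatives were size factors of DESeq2 1.42.0, total-count scaling, no filter, a mean of at least 500 counts, 5 reads added, limits of 4-fold and 1.5-fold, an interval wholly beyond 2-fold, and removal of a GC trend (lowess, span 0.3).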

Additional observations from a re-analysis of the deposited data

How the results depend on the processing

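Por was lower by more than 2-fold under every alternative tried except the 4-fold limit, which left 0 of the 9 genes lower. Cyp3a44 did not pass with 5 reads added (1 gene lower), with a mean of at least 500 counts (1 lower) or with an interval wholly beyond 2-fold (1 lower). With the 1.5-fold limit, 3 genes were higher (Cyp1a2, Cyp3a25 and Cyp3a59) and 3 lower (Cyp3a44, Por and Ahr), where 19% of all genes were higher and 18.8% lower. Of the 64 pathway genes compared, 10 were higher and 8 lower, where 8.45% and 8.61% of all genes were. With the 1.5-fold limit 19 were higher and 12 lower, beside the same 19% and 18.8% of all genes. With the 4-fold limit 4 were higher and 1 lower, and no share of all genes was computed. Removing the GC trend left 10 higher and 8 lower, but not the same genes. Cyp2c55, Slco1a4 and Rxra no longer passed, and Blvrb, Nr0b2 (1.02) and Tiparp did. Scaling by total count gave log2 ratios of 0.21 for the summed Cyp3a counts and 0.71 for the summed Cyp1a counts, and moved the median of all genes by -0.05. With the GC trend removed, an alternative added after the data were seen for these sums, they were -0.18 and 0.83. Cyp3a11 turned to -0.16 under that correction, and the cause was not tested. Of 36 values of single genes under other scalings, GC correction or added reads, 35 kept their sign. Cyp1a1 and Cyp3a44, with under 150 counts in each library, are limited by depth. No paired analysis was possible because each group has 1 library.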
